A study of Arabidopsis thaliana with 8 samples.

Results

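The genes described here encode proteins of the cytosolic ribosome of Arabidopsis thaliana: 22 of the large subunit, 16 of the small subunit, 2 P proteins of the ribosomal stalk, and RACK1A, a scaffold bound to the small subunit. They were taken as a given list of 41 locus identifiers out of 33323 gene loci in the table, and all 41 were found. The rule for the list names proteins of the ribosome and no measured value, but the list was drawn up with earlier results of these data known. RNA was measured in wild-type seedlings of the Columbia ecotype, labelled 7 days old, in 4 groups of 2 libraries. CTRL seedlings were the controls, for which the labels give no temperature. LHS seedlings received a long heat stress of 30 h at 37 °C. LHSR12 and LHSR84 seedlings had the same heat and then recovered at 22 °C for 12 h and 84 h. Strand-specific libraries were made from total RNA. Nothing in the labels ties the libraries of a group to separate plants or cultures. The p-values therefore reflect library-to-library spread, which may be technical. The labels also do not give the age at harvest of the recovered seedlings, so time in recovery and age cannot be told apart. The hour of harvest was not among the sample details used here, and the part of time of day was not tested.

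Each cytosolic ribosome carries, with few exceptions, each of its proteins once, bound to the ribosomal RNAs. In Arabidopsis nearly every such protein is encoded by a family of several genes, so seedlings can make the same protein from different copies. Transcripts of these genes are abundant in growing tissue, and plant ribosomal protein promoters are known for a telomere-like motif (the telo-box) and for site II motifs, which TCP transcription factors bind. Heat is known to lower translation of many of these messenger RNAs, which RNA levels do not show. The 41 loci fall in 27 protein families, and 24 of them belong to 10 families with 2 or 3 of the loci. Shares and sums of a family cover these loci only. Further copies exist outside the list, such as RPL11D (AT5G45775) of the L11 family. Families and copy letters (RPL13C, RPS18A) follow the usual Arabidopsis names. The RefSeq annotation (TAIR10.1) names some of these genes otherwise, such as ribosomal protein L16B for RPL11C. The locus identifiers in the text fix which gene is meant.

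The promoters of these genes were set beside all promoters for motifs that the rule for the list does not name. In windows from 250 bases before to 50 bases after the annotated start, read from the TAIR10.1 genome, 22 of 41 held the telo-box core AAACCCTA on either strand, which is 53.7%, against 6.22% of all 27443 protein-coding promoters. A site II core, TGGGCC or TGGGCT, stood in 31 of 41 (75.6%), against 21.7% of all promoters, and both kinds stood together in 17 of 41 (41.5%), against 2.2%. Matches were counted on both strands, so a TGGGCC followed by CA counts on each. The telo-box cores lay close to the start: 23 of 25 matches began within 100 bases of it (92.0%), against 64.5% of the 1841 matches in all promoters. Their median first base was at position -5 in these genes and at position -53 in all promoters, counted from 0 at the start. The pair of heat shock units GAANNTTC was found in 4 of 41 (9.76%) and in 11.6% of all promoters. It was held by RPL28A (AT2G19730), RPS6A (AT4G31700), RPS10B (AT5G41520) and RPS3A (AT2G31610). A match describes letters in a window and is not a shown binding site.

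**Figure D1:**
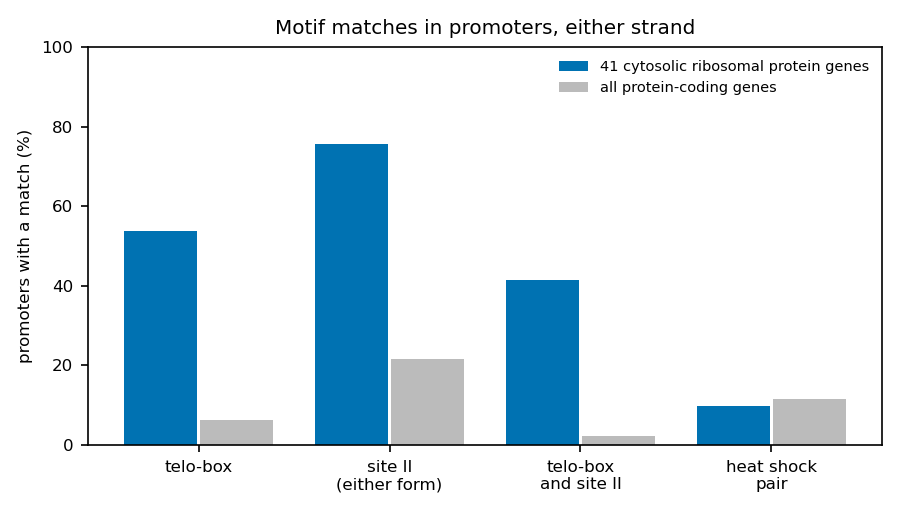
Percent of promoters (vertical axis) with at least 1 match on either strand, for the 41 cytosolic ribosomal protein genes (blue) and for all 27443 protein-coding genes (grey). The telo-box (53.7% against 6.22%) and site II (75.6% against 21.7%) were more frequent in the ribosomal protein genes, and the heat shock pair was not (9.76% against 11.6%).

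The promoters of 5 genes are printed as examples. RPS8A has both motif types and the second-highest RNA level of the loci, RPS10B and RPSaB were higher under heat, RPL23aB was lower, and RPSaA is the main copy beside RPSaB. Sequences are from RefSeq, build TAIR10.1, 5′ to 3′ on the gene's strand. Capitals mark the telo-box core, site II and the heat shock pair. A match on the opposite strand appears as its reverse complement.
RPS8A, AT5G20290, chr5:6853057-6853356, minus strand: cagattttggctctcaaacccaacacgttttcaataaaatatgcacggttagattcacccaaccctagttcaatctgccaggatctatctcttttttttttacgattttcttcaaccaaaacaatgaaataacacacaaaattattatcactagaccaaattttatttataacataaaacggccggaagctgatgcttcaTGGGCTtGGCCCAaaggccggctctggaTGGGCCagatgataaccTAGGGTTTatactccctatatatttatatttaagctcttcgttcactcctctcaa
RPS10B, AT5G41520, chr5:16610643-16610942, minus strand: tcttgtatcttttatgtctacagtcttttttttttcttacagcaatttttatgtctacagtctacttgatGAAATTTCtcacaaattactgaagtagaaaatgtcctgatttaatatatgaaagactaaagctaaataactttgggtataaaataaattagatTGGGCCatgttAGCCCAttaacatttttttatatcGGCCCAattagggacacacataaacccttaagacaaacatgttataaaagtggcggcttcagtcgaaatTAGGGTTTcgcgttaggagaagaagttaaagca
RPL23aB, AT3G55280, chr3:20499984-20500283, plus strand: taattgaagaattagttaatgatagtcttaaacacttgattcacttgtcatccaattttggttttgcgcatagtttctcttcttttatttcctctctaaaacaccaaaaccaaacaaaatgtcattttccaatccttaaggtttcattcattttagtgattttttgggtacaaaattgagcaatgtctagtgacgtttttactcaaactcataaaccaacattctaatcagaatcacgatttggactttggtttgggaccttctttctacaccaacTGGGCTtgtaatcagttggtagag
RPSaA, AT1G72370, chr1:27244882-27245181, minus strand: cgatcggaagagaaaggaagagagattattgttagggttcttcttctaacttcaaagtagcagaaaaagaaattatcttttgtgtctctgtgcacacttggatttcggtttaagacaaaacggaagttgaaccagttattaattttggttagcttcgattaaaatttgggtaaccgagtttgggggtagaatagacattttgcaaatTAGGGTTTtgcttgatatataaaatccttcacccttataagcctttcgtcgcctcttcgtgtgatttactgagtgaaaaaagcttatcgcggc
RPSaB, AT3G04770, chr3:1311080-1311379, minus strand: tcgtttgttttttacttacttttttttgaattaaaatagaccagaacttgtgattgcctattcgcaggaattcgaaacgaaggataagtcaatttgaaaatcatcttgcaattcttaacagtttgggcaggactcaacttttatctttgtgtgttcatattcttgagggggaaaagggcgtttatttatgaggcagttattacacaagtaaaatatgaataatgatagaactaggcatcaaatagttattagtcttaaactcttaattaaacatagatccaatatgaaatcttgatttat

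All matches in RPS8A began within 50 bases before the start, with site II at -50, -43 and -22 and the telo-box core at -5. RPS10B held site II at -87, -76 and -52, a telo-box core at 17 and the heat shock pair at -180. RPL23aB held only a site II match at 26, inside the transcribed part. RPSaA held a telo-box core at -43 and no site II, and RPSaB held none of these motifs. Besides RPSaB, neither a telo-box core nor site II was found in RPL13C (AT3G48960), RPL23aA (AT2G39460), RPS5B (AT2G37270) and RPS13A (AT4G00100). RPL13C has no annotated untranslated part, so its window is placed on the coding start and may miss its promoter.

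Values are scaled reads, that is, read counts over a common factor for each library. Gene loci held between 18.9 M and 28.3 M reads (M for 1e6) in the 7 libraries whose reads could be recovered. The 41 genes together took 0.757% and 1.13% of the scaled reads of gene loci in CTRL replicates 1 and 2, 1.02% and 0.942% in LHS, 1.06% and 1.04% in LHSR12, and 0.743% and 0.931% in LHSR84. The CTRL libraries therefore stood apart for these genes: 39 of 41 were lower in CTRL replicate 1 than in replicate 2, with a median difference of -0.43 on the log2 scale, while the median over gene loci was 0. In LHSR84, 40 of 41 were lower in replicate 1, with a median of -0.32. In LHS 11 of 41, and in LHSR12 14 of 41, were lower in replicate 1. The same gap was seen in 160 of 166 other cytosolic ribosomal protein genes in CTRL (median -0.44) and in 151 of 166 in LHSR84 (median -0.27). It was also seen in 27 of 28 translation factors in CTRL (median -0.25) and 26 of 28 in LHSR84 (median -0.18), and in 24 of 31 plastid ribosomal protein genes in CTRL (median -0.09) and 29 of 31 in LHSR84 (median -0.10). CTRL replicate 1 and LHSR84 replicate 1 were also the libraries with the fewest recovered reads, 18.9 M and 19.3 M, and markers of dividing cells summed to 4152 and 5318 in CTRL replicates 1 and 2 and to 3756 and 4485 in LHSR84. Green shoot markers summed to 1277430 and 967190 in CTRL and to 425286 and 440023 in LHSR84. The part of depth, dividing cells or green tissue in this gap was not tested. All 8 libraries share 1 estimate of the spread for each gene, so the gap enters the error of all 5 comparisons.

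**Figure D2:**
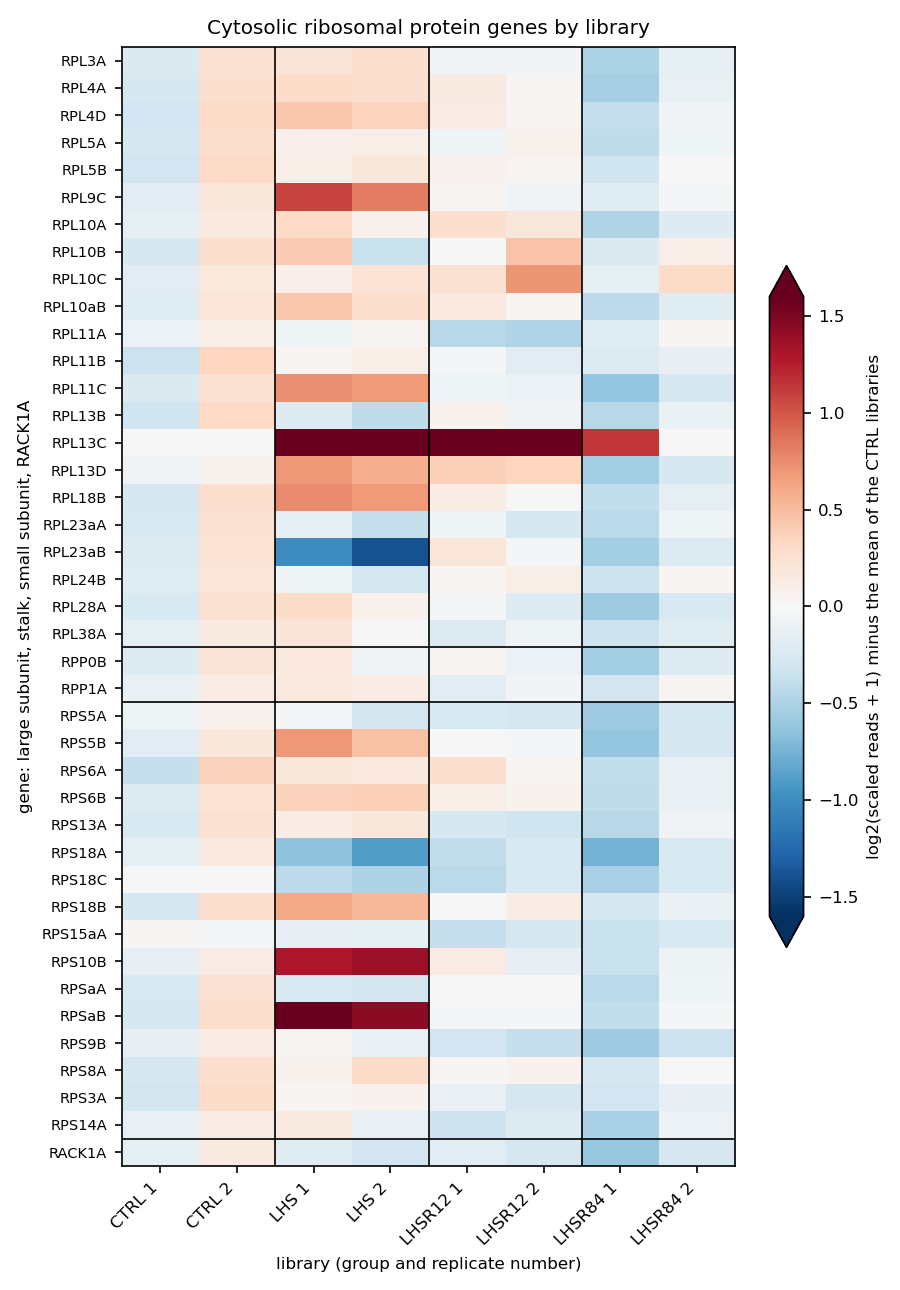
Rows are the 41 genes, columns the 8 libraries, and colour is log2(scaled reads + 1) minus the mean of the CTRL libraries, with red above and blue below that mean and values beyond 1.6 drawn in the end colours. CTRL 1 and LHSR84 1 are bluer than their partners across nearly all rows, while RPS10B, RPSaB and RPL9C stand out red and RPL23aB blue in both LHS libraries. The colour of RPL13C in LHSR84 1 rests on 1 read.

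Levels of the genes were compared per kb of annotated exon, as scaled reads per kb. RPL3A (AT1G43170), which reaches toward the peptidyl transferase centre, was the highest in CTRL with 14470 ± 3193 scaled reads per kb (SD, n = 2), followed by RPS8A (AT5G20290) with 14058 ± 3728 and RPS6A with 10809 ± 3881. RPSaA (AT1G72370) had 9485 ± 2266 and RPP0B (AT3G09200) 8752 ± 1797. At the low end were RPL13C with 0, RPSaB (AT3G04770) with 147 ± 39.5, RPL11A (AT2G42740) with 217 ± 19.4, RPL10B (AT1G26910) with 230 ± 57.7 and RPL9C (AT1G33140) with 802 ± 141. Along this order, 35 of 40 neighbouring pairs overlapped between their CTRL libraries, so most neighbours could not be told apart. RPS10B ranked 17 of 41 per kb in LHS, against 32 in CTRL. RPL11C (AT4G18730) ranked 6 in LHS against 13 in CTRL, RPL18B (AT3G05590) ranked 3 in LHS against 10 in CTRL, and RPS18A (AT1G22780) ranked 32 in LHS against 23 in CTRL. RPL3A and RPS8A held the first and second places in both groups.

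The comparison of LHS with CTRL asks what 30 h at 37 °C does to these transcripts. Most of the 41 genes differed little. Their log2 fold changes spanned an interquartile range of 0.43, against 1.97 over 24624 gene loci tested. Differences of more than 2-fold were seen in 4 of 41 (9.76%), against 49.3% of gene loci. Those loci include ones with few reads, and no set of similar level was compared. Of 166 other cytosolic ribosomal protein genes, 16.9% differed by more than 2-fold. Of the 41 genes, 9 were called higher in LHS, against 34.8% of all gene loci. Those called lower numbered 3 of 41, against 33.2% of all gene loci. A gene is called when its adjusted p from limma, with Benjamini-Hochberg adjustment over all 27638 loci, is below 0.05. The median log2 fold change was 0.14, against 0.03 over gene loci. Among large subunit genes 5 of 22 were called higher and 1 lower, and among small subunit genes 4 of 16 higher and 2 lower. The CTRL libraries decide part of this: 18 genes were called higher without CTRL replicate 2 and 7 without CTRL replicate 1, and the median was 0.37 without replicate 2 and -0.10 without replicate 1. The 9 genes added without CTRL replicate 2 were RPL3A, RPL4A, RPL4D, RPL5B, RPL10aB, RPL11B, RPS6A, RPS6B and RPS8A. The median was 0.06 with libraries scaled to equal summed gene loci and 0.05 by edgeR on the recovered reads of 7 libraries. Without LHS replicate 1 the number called higher was 5. The number called lower was 6 without CTRL replicate 1 and 1 without LHS replicate 2.

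**Figure D3:**
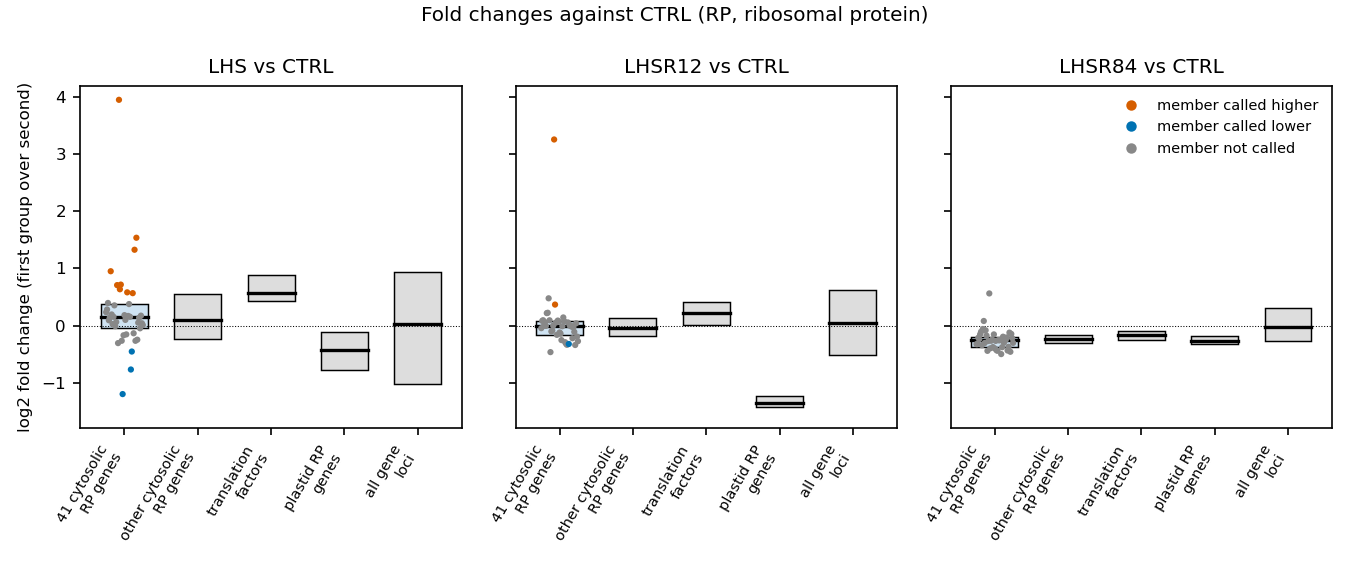
Log2 fold changes against CTRL in 3 panels, with the first-named group over CTRL. Boxes span the quartiles with the median as a line, and points are the 41 cytosolic ribosomal protein genes, coloured by call. In LHS the box of the 41 genes is narrower than that of all gene loci (interquartile range 0.43 against 1.97), and the plastid ribosomal protein genes lie lowest in LHSR12 (median -1.35).

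RPS10B encodes a small subunit protein near the entry of the messenger RNA channel. It had 1579 and 1901 scaled reads in CTRL, 4253 and 4457 in LHS, 1898 and 1578 in LHSR12, and 1358 and 1634 in LHSR84. Both LHS libraries were above every other library, and the other 3 groups overlapped. The gene rose 2.51-fold in LHS over CTRL (log2 1.33, SE 0.14, adjusted p = 6.03e-05 by limma) and fell in LHSR12 relative to LHS (log2 -1.33, adjusted p = 7.32e-05). Both calls held under all 19 alternative settings run. Its promoter, printed above, was the only one among the 9 raised genes with the heat shock pair, and 3 of the 29 genes that were not called had it too.

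RPSaA and RPSaB encode the small subunit protein uS2, also known as p40. RPSaB, the minor copy, had 176 and 259 scaled reads in CTRL, 666 and 581 in LHS, 211 and 210 in LHSR12, and 162 and 210 in LHSR84. RPSaA, the major copy, had 10161 and 14291 in CTRL, 10150 and 9866 in LHS, 11967 and 12146 in LHSR12, and 8928 and 11467 in LHSR84. RPSaB was high in the LHS libraries alone, whereas the LHS libraries of RPSaA lay just under its lower CTRL library. RPSaB rose 2.91-fold in LHS over CTRL (log2 1.54, SE 0.21, adjusted p = 0.000259 by limma) and fell in LHSR12 relative to LHS (log2 -1.56, adjusted p = 0.000285), under all 19 alternatives. The difference of RPSaA did not pass (log2 -0.27, adjusted p = 0.23), though it did without CTRL replicate 1 (log2 -0.51, adjusted p = 0.0245). Per kb, RPSaB made up 5.16 ± 0.37% of the pair in LHS and 1.53 ± 0.05% in CTRL (SD, n = 2 each), 1.5 ± 0.02% in LHSR12 and 1.57 ± 0.01% in LHSR84. The coding sequences of the pair are 70.4% identical, with 31 bases as the longest identical run.

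RPL23aA and RPL23aB encode uL23, at the exit of the peptide tunnel, where the signal recognition particle binds. RPL23aB (AT3G55280) had 1155 and 1570 scaled reads in CTRL, 668 and 512 in LHS, 1541 and 1329 in LHSR12, and 925 and 1161 in LHSR84. Its LHS libraries were the lowest of all 8. It fell in LHS to 0.435 of the CTRL level (log2 -1.20, SE 0.19, adjusted p = 0.000633 by limma) and rose 2.44-fold in LHSR12 over LHS (log2 1.29, adjusted p = 0.000494), under all 19 alternatives. RPL23aA had 3569 and 4980 scaled reads in CTRL, 3795 and 3231 in LHS, 4010 and 3533 in LHSR12, and 3137 and 4018 in LHSR84, so all its groups overlapped. It did not pass in LHS (log2 -0.27, adjusted p = 0.233), but did without CTRL replicate 1 (log2 -0.51, adjusted p = 0.0367). RPL23aB held 22.7 ± 1.3% of the pair per kb in LHS, against 35.9 ± 0.43% in CTRL, and it held 40.0 ± 0.36% in LHSR12 and 33.9 ± 0.33% in LHSR84 (SD, n = 2 each). This ratio within a library does not depend on the factor that scales it, and its CTRL values, 36.2% and 35.6%, lay close together although both genes differed between those libraries. The coding sequences are 83.7% identical, with a longest identical run of 20 bases.

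The 3 copies of S18 (uS13), a protein in the head of the small subunit, moved in different directions. RPS18B (AT1G34030) had 1655 and 2404 scaled reads in CTRL, 3032 and 2883 in LHS, 1989 and 2157 in LHSR12, and 1636 and 1852 in LHSR84. RPS18A, whose mutant is known as pointed first leaf, had 2162 and 2675 in CTRL, 1539 and 1289 in LHS, 1832 and 2031 in LHSR12, and 1424 and 2028 in LHSR84. RPS18C (AT4G09800) had 4390 and 4415 in CTRL, 3287 and 3134 in LHS, 3255 and 3726 in LHSR12, and 3079 and 3715 in LHSR84. In LHS each copy stood clear of its CTRL libraries, RPS18B above them and the other two below. RPS18B rose 1.48-fold (log2 0.57, SE 0.17, adjusted p = 0.0151 by limma), a call that 10 of 19 alternatives kept: it was lost without CTRL replicate 1 (adjusted p = 0.0579), without LHS replicate 1 (0.120) and without LHS replicate 2 (0.0905). RPS18A fell (log2 -0.77, SE 0.18, adjusted p = 0.00549), as did RPS18C (log2 -0.46, SE 0.12, adjusted p = 0.00975). Without LHS replicate 2 the adjusted p of RPS18A was 0.0883 and that of RPS18C 0.0717. Per kb, RPS18B made up 39.8 ± 0.64% of the 3 copies in LHS and 23.3 ± 3.69% in CTRL, RPS18A 18.8 ± 1.38% in LHS and 27.6 ± 1.26% in CTRL, and RPS18C 41.4 ± 0.74% in LHS and 49.1 ± 4.95% in CTRL (SD, n = 2 each). Summed over the copies, the family had 7858 and 7306 scaled reads in LHS and 8207 and 9495 in CTRL. Their coding sequences are 87.1% to 91.1% identical. The sources used here do not give how multiply matching reads were counted, so close copies in these families may have exchanged reads.

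**Figure D4:**
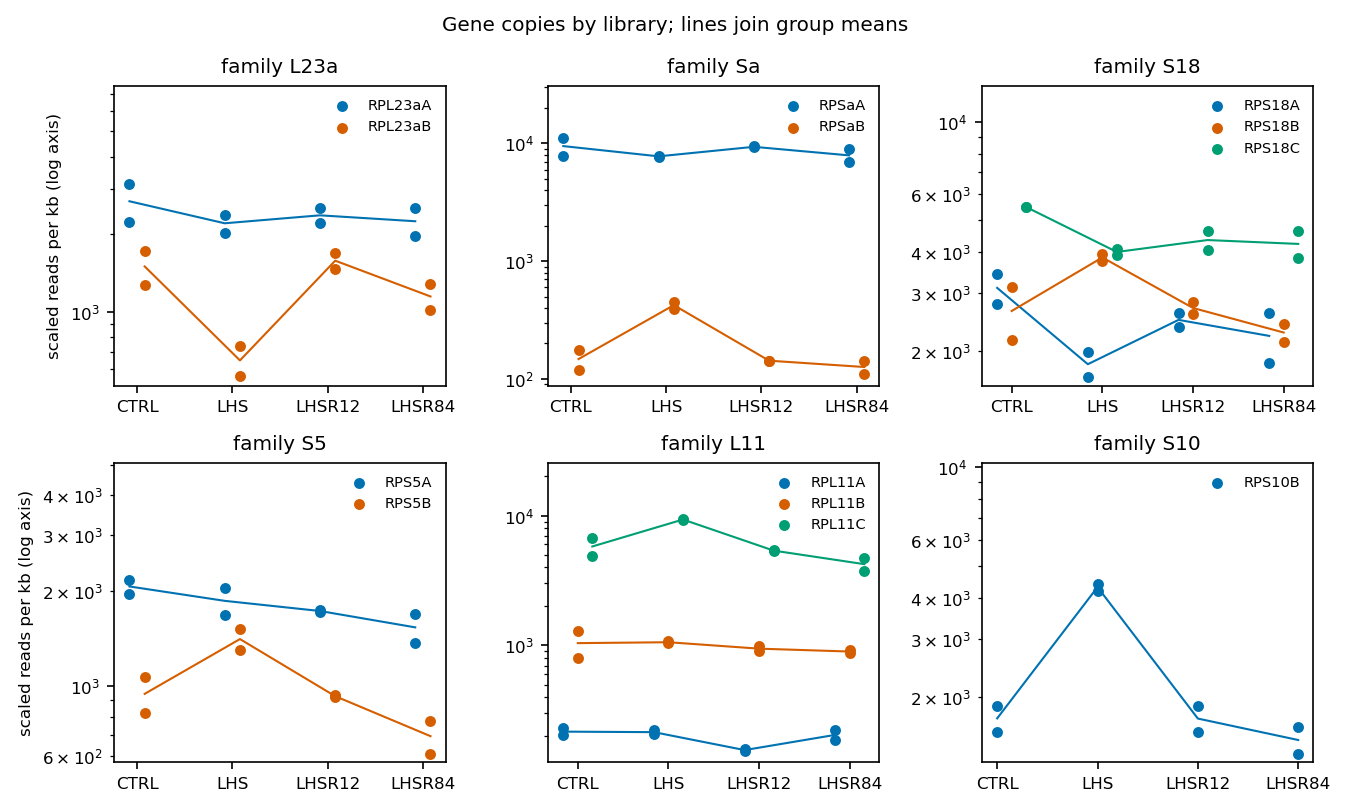
Scaled reads per kb (log axis) of gene copies in 6 families, 1 point a library, with lines joining the group means. RPSaB, RPS18B, RPS5B, RPL11C and RPS10B peak in LHS, RPL23aB and RPS18A dip there, and the main copies RPSaA and RPL23aA vary less.

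The L13 family (eL13) includes the locus with the fewest reads of the 41. RPL13C had 0 scaled reads in both CTRL libraries, 16.02 and 13.2 in LHS, 15.3 and 4.64 in LHSR12, and 1.18 and 0 in LHSR84. It was detected in every LHS and LHSR12 library and in 1 of the other 4. With a floor of 3 reads in each CTRL library (4.06 and 3.22 scaled reads), it was at least 4.01-fold higher in LHS than in CTRL and at least 2.74-fold higher in LHSR12 than in CTRL. The second bound was 1.27 without LHSR12 replicate 1 and 4.21 without LHSR12 replicate 2. Limma called both rises (adjusted p = 0.000657 in LHS and 0.00361 in LHSR12). LHSR84 had 1 read and LHSR12 had 26 reads, a ratio of 0.0537 (exact Clopper-Pearson 95% interval 0.00131 to 0.327, which covers counting error only). RPL13D (AT5G23900) had 1202 and 1307 scaled reads in CTRL, 2020 and 1877 in LHS, 1638 and 1595 in LHSR12, and 862 and 1045 in LHSR84. Its 4 groups did not overlap. RPL13D rose 1.55-fold in LHS (log2 0.64, SE 0.12, adjusted p = 0.0014 by limma) and 1.29-fold in LHSR12 over CTRL (log2 0.37, adjusted p = 0.0328). The first call held under 18 of 19 alternatives and the second under 10 of 19, with adjusted p = 0.108 without CTRL replicate 1, 0.139 without LHSR12 replicate 1, 0.106 without LHSR12 replicate 2 and 0.0595 with either LHS library left out. RPL13B (AT3G49010), the main copy, had 5100 and 7942 scaled reads in CTRL, 5493 and 4809 in LHS, 6590 and 6132 in LHSR12, and 4696 and 5920 in LHSR84. Its LHS and CTRL libraries overlapped and it did not pass in LHS (log2 -0.31, adjusted p = 0.218), but did without CTRL replicate 1 (log2 -0.63, adjusted p = 0.0109). RPL13D held 37.9 ± 1.00% of the family per kb in LHS and 24.4 ± 4.66% in CTRL (SD, n = 2 each). The RPL13C locus has no annotated untranslated part, and its coding sequence is 86.3% identical to RPL13B with a longest identical run of 30 bases.

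The other genes raised in LHS were RPL9C, RPL18B, RPL11C and RPS5B. RPL9C (uL6), known from the piggyback2 leaf mutant, had 703 and 902 scaled reads in CTRL, 1690 and 1406 in LHS, 820 and 766 in LHSR12, and 698 and 780 in LHSR84. Its LHS libraries were above all others, and it rose 1.93-fold (log2 0.95, SE 0.15, adjusted p = 0.000547 by limma). The copies RPL9B and RPL9D are outside the list described here. Their sequences were not compared with RPL9C, and exchange of reads with them was not tested. RPL18B (eL18) had 8148 and 11805 scaled reads in CTRL, 16538 and 15726 in LHS, 10636 and 9724 in LHSR12, and 7469 and 8891 in LHSR84. It rose 1.64-fold (log2 0.72, adjusted p = 0.00784), a call lost with either LHS library left out. RPL11C encodes uL5, which binds the 5S ribosomal RNA, and had 4125 and 5703 scaled reads in CTRL, 8059 and 7794 in LHS, 4605 and 4528 in LHSR12, and 3165 and 4015 in LHSR84. It rose 1.63-fold (log2 0.71, adjusted p = 0.00562 by limma), a call likewise lost with either left out. Per kb, RPL11C held 88.0 ± 0.60% of the 3 listed L11 copies in LHS and 82.2 ± 0.88% in CTRL, with RPL11D left out. Its copies RPL11A and RPL11B (AT3G58700) did not pass, with log2 fold changes of -0.01 and 0.06. RPS5B (uS7, at the messenger RNA exit) had 1036 and 1341 scaled reads in CTRL, 1903 and 1637 in LHS, 1175 and 1162 in LHSR12, and 769 and 978 in LHSR84. It rose 1.5-fold (log2 0.58, adjusted p = 0.0116), a call that 12 of 19 alternatives kept, and that was lost without CTRL replicate 1 and without LHS replicate 1 among others. Its copy RPS5A (AT3G11940), needed for cell division in embryos, was at log2 -0.16 and did not pass. RPS5B made up 43.1 ± 0.68% of the pair per kb in LHS and 31.3 ± 2.38% in CTRL (SD, n = 2 each).

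In the L4, L5 and S6 families the mean shares of LHS and CTRL lay within 4 percentage points of each other, although the LHS libraries did not overlap the CTRL libraries. RPL4D (AT5G02870) made up 43.8 ± 0.49% of its pair with RPL4A (AT3G09630) in LHS and 41.9 ± 1.36% in CTRL (uL4, in the wall of the peptide tunnel). RPL5B (AT5G39740) made up 51.0 ± 0.56% of its pair with RPL5A (AT3G25520) in LHS and 50.1 ± 0.66% in CTRL (uL18, which also binds 5S ribosomal RNA). RPS6B (AT5G10360) made up 46.5 ± 0.45% of its pair with RPS6A in LHS and 42.9 ± 3.82% in CTRL (eS6, the target of S6 kinase). In the L10 family (uL16), RPL10A (AT1G14320) made up 46.5 ± 4.34% in LHS and 45.8 ± 0.44% in CTRL, RPL10C (AT1G66580) 51.3 ± 5.07% in LHS and 51.9 ± 0.23% in CTRL, and RPL10B 2.18 ± 0.73% in LHS and 2.35 ± 0.21% in CTRL (SD, n = 2 each). All 3 overlapped between LHS and CTRL. In LHSR84, RPL10A made up 38.7 ± 2.04% and RPL10C 58.9 ± 2.10%, and neither overlapped CTRL. RPL11C made up 79.2 ± 1.86% of the 3 listed L11 copies in LHSR84, also clear of CTRL. The longest identical run of coding sequence was 98 bases for RPL10A and RPL10C and 113 bases for RPL11A and RPL11B. The shares and calls of these copies may therefore carry exchanged reads. With 2 libraries a group, an exact two-sided permutation test of a share cannot give a p below 0.333, so these shares are given as descriptions.

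**Figure D5:**
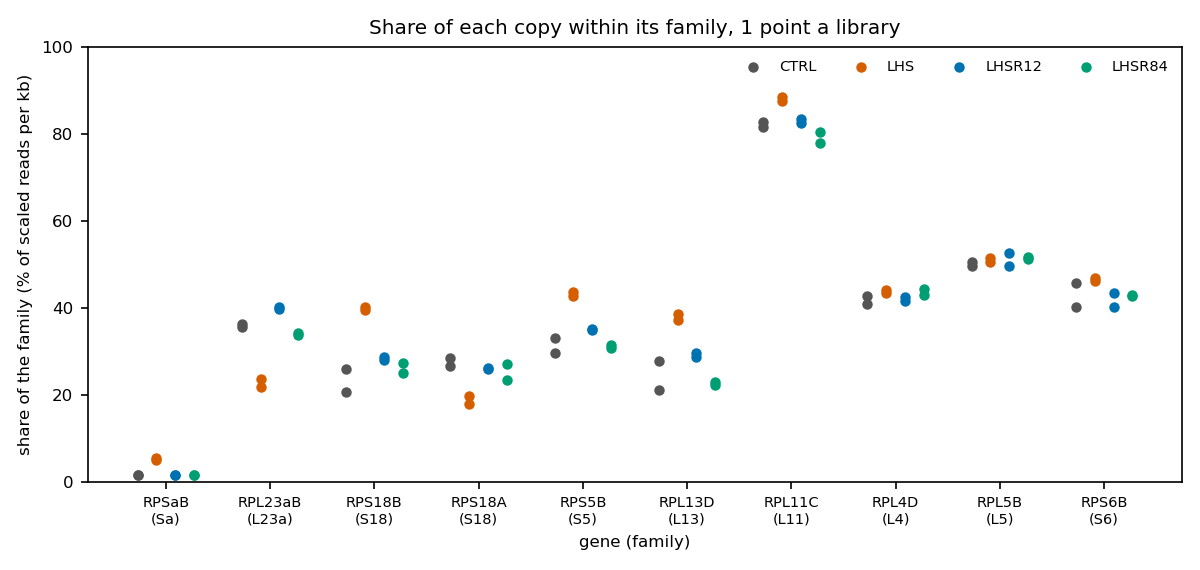
Percent of the scaled reads per kb of a family's listed loci taken by the named copy (vertical axis), 1 point a library, coloured by group. The LHS points of RPSaB, RPS18B, RPS5B, RPL13D and RPL11C lie above the CTRL points and those of RPL23aB and RPS18A below them, without overlap. The LHS points of RPL4D, RPL5B and RPS6B also lie above their CTRL points.

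RACK1A (AT1G18080) had 4219 and 5194 scaled reads in CTRL, 4086 and 3801 in LHS, 4124 and 3902 in LHSR12, and 3065 and 3893 in LHSR84. All libraries of the later groups lay below both CTRL libraries, but no difference passed: log2 -0.25 in LHS (adjusted p = 0.167 by limma), -0.22 in LHSR12 (0.254) and -0.44 in LHSR84 (0.0913). Without CTRL replicate 1 the LHSR84 difference passed (log2 -0.59, adjusted p = 0.0494). RPP0B, the base of the stalk that recruits translational GTPases, had 10923 and 14633 scaled reads in CTRL, 14081 and 12162 in LHS, 12983 and 11809 in LHSR12, and 8700 and 10948 in LHSR84. RPP1A (AT1G01100), a P1 protein of the same stalk, had 2449 and 2886 in CTRL, 2958 and 2883 in LHS, 2350 and 2578 in LHSR12, and 2169 and 2742 in LHSR84. For both P protein genes each later group overlapped CTRL. The log2 fold changes of RPP0B against CTRL were 0.05 in LHS, -0.03 in LHSR12 and -0.37 in LHSR84 (adjusted p = 0.828, 0.915 and 0.234 by limma). Those of RPP1A were 0.14, -0.11 and -0.12 (adjusted p = 0.409, 0.547 and 0.629).

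The remaining single loci did not pass in LHS either, although RPL10aB, RPS8A and RPL3A did without CTRL replicate 2. On the large subunit, the log2 fold changes were 0.35 for RPL10aB (AT2G27530, the uL1 stalk), -0.17 for RPL24B (AT3G53020, SHORT VALVE1, known for translation reinitiation), 0.18 for RPL28A and 0.10 for RPL38A (AT2G43460). The largest shift of these, that of RPL10aB, had an adjusted p of 0.070. On the small subunit they were 0.15 for RPS13A, -0.14 for RPS15aA (AT1G07770), -0.05 for RPS9B (AT5G15200), 0.17 for RPS8A, 0.04 for RPS3A and 0.01 for RPS14A (AT2G36160). RPL3A was at 0.23.

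The comparisons after heat ask whether the levels return. LHSR12 was close to CTRL: 2 of 41 genes were called higher, against 24.4% of all gene loci, and 1 of 41 lower, against 21.7%. The risers were RPL13C and RPL13D, described above. The lower gene was RPS15aA (uS8), with 2315 and 2463 scaled reads in LHSR12 and 3036 and 2944 in CTRL (log2 -0.32, SE 0.10, adjusted p = 0.0234 by limma). Its LHS libraries, 2729 and 2711, lay between those groups. That call was lost without CTRL replicate 1 (adjusted p = 0.0538) and without LHSR12 replicate 1 (0.0968), and also when libraries were scaled to equal summed gene loci (log2 -0.14, adjusted p = 0.294). The median log2 fold change was -0.01, 0.23 without CTRL replicate 2 and -0.25 without CTRL replicate 1. The number called lower was 4 without CTRL replicate 1, 2 with either LHSR84 library left out and 0 without LHSR12 replicate 1.

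Set directly against LHS, LHSR12 had 1 of 41 genes called higher, against 32.3% of gene loci, and 8 of 41 called lower, against 31.6%. The median log2 fold change was -0.23, against 0.01 over gene loci. The higher gene was RPL23aB. Of the 9 genes raised in LHS, 7 were among the 8 lower here, and since LHS stands in both comparisons this overlap is no independent result. After RPSaB and RPS10B, the largest fall was that of RPL9C (log2 -0.96, SE 0.15, adjusted p = 0.000613 by limma). The others were RPL11C (log2 -0.80), RPL18B (log2 -0.67), RPS5B (log2 -0.59), RPS18B (log2 -0.51) and RPL11A (log2 -0.45). RPL11A had 134 and 131 scaled reads in LHSR12 and 175 and 189 in LHS, with CTRL at 172 and 195 and LHSR84 at 159 and 187, so its LHSR12 libraries were its lowest. Its call (adjusted p = 0.0488) held under 6 of 19 alternatives. The number called lower was 3 without LHS replicate 1, 5 without LHS replicate 2, 4 with either LHSR12 library left out and 4 by edgeR on the recovered reads of 7 libraries. The number called higher was 2 with any CTRL or LHSR84 library left out. With libraries scaled to equal summed gene loci, which shifts all loci by 0.27 on the log2 scale here, 6 genes were called higher and 4 lower and the median turned to 0.04.

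In LHSR84, 0 of 41 genes were called higher than CTRL, against 8.94% of gene loci, and 0 of 41 lower, against 5.32%, by limma. At an unadjusted p below 0.05 there were 9 of 41, against 28% of gene loci, and the smallest adjusted p was 0.0532, for RPS9B (2767 and 3280 scaled reads in LHSR84 and 3775 and 4550 in CTRL, log2 -0.46). On the recovered reads of 7 libraries, edgeR called 0 in either direction and DESeq2 called 1 lower. The fold changes were small and mostly negative: 39 of 41 lay below 0, with a median of -0.26, against -0.02 over gene loci. Related lists showed a similar shift. The median was -0.24 in other cytosolic ribosomal protein genes (154 of 166 below 0). It was -0.27 in plastid ribosomal protein genes (31 of 31 below 0) and -0.17 in translation factors (23 of 28 below 0). For the 41 genes the median was -0.14 with libraries scaled to equal summed gene loci, which shifts all loci by 0.12. It was -0.12 without LHSR84 replicate 1 and -0.41 without LHSR84 replicate 2. Without CTRL replicate 1 the median was -0.50 and 8 genes were called lower, and without CTRL replicate 2 the median was -0.01 with 0 called lower. Replicate 1 differed from replicate 2 by a median of -0.43 in CTRL and -0.32 in LHSR84. Those are differences between single libraries and -0.26 is one between group means, so the values are not directly comparable. The part of the replicate gap in this shift was not tested.

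In LHSR84 relative to LHSR12, 0 of 41 genes were called higher, against 17.9% of gene loci, and 3 of 41 lower, against 19.3%, by limma. At an unadjusted p below 0.05 there were 6 of 41 genes, against 47% of gene loci, and edgeR and DESeq2 also called 0 higher. The lower genes were RPL13C, RPL13D (log2 -0.77, SE 0.12, adjusted p = 0.00155) and RPL10A. RPL10A, a late-joining protein that also takes part in immune signalling, had 4011 and 4839 scaled reads in LHSR84 and 6677 and 6336 in LHSR12 (log2 -0.56, SE 0.15, adjusted p = 0.0214). Its call was lost without LHSR84 replicate 1 (adjusted p = 0.153), with LHSR12 replicate 1 or 2 left out (0.142 and 0.0984) and with LHS replicate 1 or 2 left out (0.0508 and 0.0511). RPL13C was not called without LHSR12 replicate 1 (adjusted p = 0.0705), without LHSR84 replicate 2 (0.0812), by edgeR (0.0652) or by DESeq2 (0.143). RPL10C, annotated as a senescence-associated gene, had 5211 and 7124 scaled reads in LHSR84 and 6842 and 9417 in LHSR12, and RPL10B had 202 and 254 in LHSR84 and 236 and 324 in LHSR12; neither passed. The median was -0.24, against -0.06 over gene loci. It was -0.07 without LHSR84 replicate 1 and -0.41 without LHSR84 replicate 2, and 7 genes were called lower with either CTRL library left out and 1 without LHSR12 replicate 1.

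Other genes of translation give the setting. In a list of other cytosolic ribosomal proteins, 166 genes were tested over CTRL. Of these, 45 were called higher and 23 lower in LHS, and 12 higher and 5 lower in LHSR12. In either direction that was 41% in LHS and 10.2% in LHSR12, against 68% and 46.1% of all gene loci. The median log2 fold change of this list in LHS was 0.09 with an interquartile range of 0.78. RPL36aA (AT3G23390) had the largest called fall in LHS (log2 -1.59, adjusted p = 7.38e-05 by limma), with a mean of 966.8 scaled reads in LHS and 2966 in CTRL. Of 28 translation factors, 21 were called higher in LHS, against 34.8% of gene loci, with a median of 0.57. Among them eEF1B1 (AT5G12110), part of the exchange factor of the elongation factor eEF1A, averaged 20140 scaled reads in LHS and 139.8 in CTRL (log2 7.25, adjusted p = 4.43e-07). It remained higher than CTRL at 4574 in LHSR12 (log2 5.12) and 535 in LHSR84 (log2 2.01). Of 31 plastid ribosomal proteins, which serve chloroplast translation, 21 were called lower in LHS, 31 in LHSR12 and 1 in LHSR84. Of gene loci, 33.2%, 21.7% and 5.32% were called lower in those groups. The plastid medians were -0.43 in LHS and -1.35 in LHSR12. In LHSR84 relative to LHSR12, 30 of the 31 were called higher, against 17.9% of gene loci. Of 7 TOR pathway genes, which link nutrients to ribosome production, 4 were called higher and 1 lower in LHS. That is 71.4% called in either direction, near the 68% of all gene loci. S6K1 (AT3G08730), the kinase of eS6, had the largest called rise in LHSR12 (log2 1.95, adjusted p = 2.5e-06).

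Markers of tissues moved with the same groups. Of 11 root markers, 10 were called lower in LHS, against 33.2% of gene loci. Their summed scaled reads were 6934 and 6981 in LHS, against 102244 and 126699 in CTRL. Green shoot markers were lower in 6 of 6 genes, with sums of 146657 and 186952 in LHS, against 1277430 and 967190 in CTRL. Markers of dividing cells and meristems were lower in 7 of 8 tested genes, with sums of 1374 and 1480 in LHS, against 4152 and 5318 in CTRL. CLV3 was at or near 0 in every library. In LHSR12 over CTRL, 8 of 11 root markers were called lower and 2 higher, 5 of 6 green shoot markers lower and 1 higher (GLK1, log2 0.76), and 7 of 8 markers of dividing cells and meristems lower and 1 higher (STM, log2 0.73). In LHSR84 over CTRL, 1 of 11 root markers was called lower and 1 higher, with a median log2 fold change of -0.58, 4 of 6 green shoot markers lower and 0 higher, with a median of -1.77, and 1 of 8 markers of dividing cells and meristems lower and 1 higher, with a median of -0.16. Of all gene loci, 21.7% were called lower and 24.4% higher in LHSR12, and 5.32% lower and 8.94% higher in LHSR84, each over CTRL. The sums in LHSR12 were 26629 and 28593 for root, 207102 and 220293 for green shoot and 1306 and 1517 for dividing cells. In LHSR84 they were 104729 and 96846 for root, 425286 and 440023 for green shoot and 3756 and 4485 for dividing cells. A few abundant genes make up most of these sums. PYK10 had 97818 and 89272 scaled reads in LHSR84 and 92521 and 116831 in CTRL. RBCS1A had 288285 and 273901 in LHSR84 and 288128 and 294338 in CTRL. LHCB1.3, the most abundant green shoot marker in CTRL, had 105382 and 133145 in LHSR84 and 701445 and 481598 in CTRL. CAB3, a green shoot marker of lower level, was at log2 -5.18 in LHSR84 over CTRL (adjusted p = 5.76e-05 by limma). Their part in the results above was not tested, and in RNA from whole seedlings fewer cells of a type and less RNA per cell cannot be told apart.

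Motif content was set beside the heat calls as a description. Of the 9 genes raised in LHS, 5 held the telo-box core and 5 held site II, and 3 held neither (RPL13C, RPS5B and RPSaB). For RPL13C the window is placed on the coding start, so its lack of matches says little. Of the 3 lowered genes, 2 held the telo-box core and 1 held site II. Of the 29 genes that were not called, 15 held the telo-box core, 25 held site II and 2 held neither.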

How the data were processed

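RNA of 8 seedling libraries, 2 in each of 4 groups, was analysed from a table of 64512 loci (33323 gene loci and 31189 transposable element loci). The deposited values are a signal: read counts that the authors brought to a joint scale with 1 factor per library. In each library 100% of values were whole multiples of the smallest (tolerance 0.001). Reads were recovered for 7 libraries, since the step of LHS replicate 1 is too close to 1. Per the submitters' processing notes, tools were DESeq2 1.14.1, HTSeq 0.9.1, STAR 2.5.3a and CASAVA and the build was TAIR10, with no role given. The use of strand in counting and the treatment of multiply matching reads are not given in the sources used here.

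All 8 libraries were fitted with limma 3.58.1 (trend, R 4.3.3) on log2(value + 1), with each of 5 comparisons as a contrast. Fold changes are on that scale, which understates changes of low genes. Loci with a mean of at least 1 were tested (27638, of which 24624 gene loci, with all 41 genes among them), and adjusted p is Benjamini-Hochberg over all of them. The fit was tested on simulated data. Gene loci held between 18.9 M and 28.3 M recovered reads per library. The genes, lists and tests were chosen with earlier results of these data known. Named in each comparison were the 3 largest called rises and falls with groups that do not overlap, their families, RACK1A and the P proteins. Other genes were named as examples by family. The list of other cytosolic ribosomal proteins kept 173 of 187 entries, those whose annotation text names them as such. Ribosomal protein genes with other annotation text were left out, among them RPS10A and RPS10C, copies of RPS10B. Sequences, exon lengths and motif matches come from RefSeq TAIR10.1, read with Biopython 1.88. The table holds no coordinates, and loci were matched by identifier.

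Alternatives were a pseudocount of 0.1, no filter, a minimum mean of 10, an adjusted p of 0.01, a minimum of 2-fold, TMM scaling, equal summed gene loci, only the compared groups, the replicate block, each library left out, and count tests on the recovered reads of 7 libraries with DESeq2 1.42.0 and edgeR 4.0.16.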

Additional observations from a re-analysis of the deposited data

How the results depend on the processing

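All counts are of genes called among the 41. With each library left out in turn, the number called higher was 5 to 18 in LHS over CTRL, 1 to 3 in LHSR12 over CTRL and 1 to 2 in LHSR12 over LHS. The number called lower was 1 to 6 in LHS over CTRL, 0 to 4 in LHSR12 over CTRL, 0 to 8 in LHSR84 over CTRL, 3 to 10 in LHSR12 over LHS and 1 to 7 in LHSR84 over LHSR12. The median log2 fold change was -0.10 to 0.37 in LHS over CTRL, -0.25 to 0.23 in LHSR12 over CTRL, -0.50 to -0.013 in LHSR84 over CTRL and -0.41 to -0.07 in LHSR84 over LHSR12. With 1 library left in a group, that library was assumed to vary like the other groups.

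At an adjusted p of 0.01, 1 gene was called higher and 0 lower in LHSR12 over CTRL, 4 lower in LHSR12 over LHS and 1 lower in LHSR84 over LHSR12, since the threshold is stricter. With a minimum of 2-fold, 3 were called higher and 1 lower in LHS over CTRL, 1 higher and 0 lower in LHSR12 over CTRL, 2 lower in LHSR12 over LHS and 1 lower in LHSR84 over LHSR12. With a minimum mean of 10, under which RPL13C is not tested, 1 was called higher and 2 lower in LHSR12 over CTRL, 2 higher in LHSR12 over LHS and 2 lower in LHSR84 over CTRL. With equal summed gene loci, 6 were called higher and 4 lower in LHSR12 over LHS with a median of 0.037 in place of -0.23, and 0 lower in LHSR12 over CTRL with a median of 0.18. TMM scaling gave 2 higher in LHSR12 over LHS. With only the compared groups, 3 were called higher and 13 lower in LHSR12 over LHS and 0 lower in LHSR12 over CTRL. On recovered reads, edgeR called 1 higher in LHSR12 over CTRL and 4 lower in LHSR12 over LHS, and DESeq2 called 1 higher in LHSR12 over CTRL, 1 lower in LHSR84 over CTRL and 5 lower in LHSR12 over LHS. Equal summed gene loci shift all loci by 0.19 in LHSR12 over CTRL, 0.12 in LHSR84 over CTRL and 0.27 in LHSR12 over LHS on the log2 scale. For these changes the cause was not tested beyond what the settings themselves change. The counts and medians kept within 1.5 times, or within 1 SD of the spread between replicates, under a pseudocount of 0.1 and no filter.

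Over tested gene loci the replicate numbers did not pair the libraries: correlations of deviations between same-numbered libraries lay between -0.072 and 0.054. Of the 41 genes, 39 in CTRL and 40 in LHSR84 were lower in replicate 1, against 11 in LHS and 14 in LHSR12. These correlations therefore do not settle pairing for part of the genes. With the replicate block, 2 genes were called higher in LHSR12 over LHS in place of 1, and 3 higher in LHSR12 over CTRL in place of 2, with RPL10C added. RPL10C was also called lower in LHSR84 over LHSR12 under the block (log2 -0.40, adjusted p = 0.0423), which made 4 genes in place of 3. Of 681 alternative values for 36 named fold changes, 630 kept direction and side of the threshold, 44 lost the call, 7 gained it and 0 reversed. Depth limits RPL13C, which had at most 16.02 scaled reads in any library.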
